A study of Rattus norvegicus with 3 samples.

Results

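The genes described here were 6 erythroid genes and 2 globin genes of other tissues: the alpha-globin genes Hba-a1 and Hba-a2, the beta-globin genes Hbb-b1 and Hbb-bs, the hemoglobin-stabilizing gene Ahsp and the erythroid heme synthesis gene Alas2, together with neuroglobin (Ngb) and cytoglobin (Cygb). They were taken as the array probes whose accession belongs to 1 of these 8 rat genes in RefSeq, and all 8 were found among the 38973 genes of the arrays. The erythroid genes were chosen by their measured values, since erythroid transcripts were already known to be low on the contralateral array, so their ratios are a description and carry no test. In male Wistar rats aged 9 weeks, RNA of the cerebellar cortex was taken 2 days after surgery and labelled with 1 dye for microarrays, where the brightness of a spot stands for the amount of a transcript. Rats of the MCAO group had a transient occlusion of the right middle cerebral artery; their left cerebellar cortex is the contralateral sample and their right cerebellar cortex is the ipsilateral sample. The control sample was the left cerebellar cortex of sham-operated rats, whose carotid artery was exposed and not opened. Each sample was 1 array with RNA from the pooled tissue of 4 rats. Both sides came from the same rats, so nothing was replicated and every difference compares 2 pools.

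The labelled tissue fitted its markers. All 16 cerebellar cortex markers with a probe were well above background on all 3 arrays, and the brightest of them, the Bergmann glia and Purkinje cell gene Aldoc, had scaled log2 signals of 17.80, 17.97 and 17.53 in the order contralateral, ipsilateral, control, which is kept below. Scaled means that each array was shifted to a common 75th percentile, and values are given for this setting unless another is named. Of 58717 spots that are not controls, 72.3%, 73.3% and 73.7% were well above background in the same order. The ipsilateral array was the dimmest, with a 75th percentile signal of 1614 against 2103 and 2336. Signals of the globin genes in such tissue stand on a floor: negative control spots had a median scaled log2 signal of 1.12, 1.58 and 1.06, and the lowest signal of any probe well above background was 3.19, 3.63 and 3.12.

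Hemoglobin carries oxygen in red blood cells as a tetramer of alpha and beta chains, each of which holds a heme group. Its genes lie in an alpha cluster and a beta cluster on different chromosomes and are transcribed in erythroid precursors, and reticulocytes, the youngest circulating red cells, still hold globin mRNA after they have lost the nucleus. Ahsp encodes a chaperone that binds free alpha chains, and Alas2 encodes the erythroid enzyme of the rate-limiting step of heme synthesis. Neuroglobin and cytoglobin are related proteins of other cells: neuroglobin is made in neurons, most abundantly in the hypothalamus and brainstem, and cytoglobin in fibroblast-like cells, hepatic stellate cells and some neurons. In a bulk sample such as this, fewer cells of a type and less RNA per cell cannot be told apart, and RNA from blood left in the vessels is part of what is measured.

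Promoters are shown for the globin genes because these genes had lower signals together on both sides. RefSeq sequences of GRCr8 were matched for 6 of the 8 genes, Hba-a1, Hba-a2, Hbb-b1, Hbb-bs, Alas2 and Ngb, while Ahsp and Cygb are only named. The 170 bases before the start site follow, 5′ to 3′ on the minus strand, for Hba-a1 at chr10:15842581-15842750, Hba-a2 at chr10:15829139-15829308 and Hbb-bs at chr1:167631631-167631800. Capitals mark matches to 3 kinds of motif on either strand: the spelling of a GATA factor (A or T, then GATA, then A or G), the CACCC core bound by Klf1 and its relatives, and TATAAA.
Hba-a1: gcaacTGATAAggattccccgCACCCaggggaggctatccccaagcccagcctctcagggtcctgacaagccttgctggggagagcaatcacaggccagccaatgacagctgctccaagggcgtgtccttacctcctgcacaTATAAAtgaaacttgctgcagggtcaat
Hba-a2: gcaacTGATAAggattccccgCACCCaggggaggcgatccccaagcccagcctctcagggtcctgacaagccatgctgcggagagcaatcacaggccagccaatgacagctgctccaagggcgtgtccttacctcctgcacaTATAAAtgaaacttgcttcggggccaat
Hbb-bs: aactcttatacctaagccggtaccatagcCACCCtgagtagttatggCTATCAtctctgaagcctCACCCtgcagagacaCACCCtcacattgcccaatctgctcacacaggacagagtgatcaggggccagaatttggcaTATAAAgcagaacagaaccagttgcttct

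Over the 250 bases before the start, the promoters of Hba-a1 and Hba-a2 were 96.4% identical and those of Hbb-b1 and Hbb-bs 93.6%, against 50.8% between Hba-a1 and Hbb-bs. Both alpha-globin promoters held 1 GATA spelling that began 165 bases before the start, 1 CACCC and a TATAAA that began 28 bases before it. Hbb-b1 and Hbb-bs each held 1 GATA spelling at 123 bases, 3 CACCC and a TATAAA at 30 and 29 bases; the start site used for Hbb-b1 lies 57 bases inside the annotated gene. Alas2 held AGATAA and Ngb a reverse TGATAA, at 136 and 164 bases, and neither held the other 2 motifs. For Alas2 the start site of the table lies 4800 bases inside the annotated gene. Among 33469 rat promoters of the same length, 27.0% held a GATA spelling, 49.2% CACCC and 12.9% TATAAA, so a match is a description of the letters and not a binding site.

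Hba-a1, an adult alpha-globin gene, was read from 7 spots after 3 outlier spots were left out. Its scaled log2 signal was 10.09 for the contralateral, 9.94 for the ipsilateral and 10.98 for the control sample, with an SD between spots of 0.05, 0.05 and 0.06. The control array was thus highest, and none of its spots overlapped those of the other arrays. The Hba-a1 signal was 1.85-fold lower than control on the contralateral array and 2.05-fold lower on the ipsilateral array, as log2 ratios -0.88 and -1.03. The error of each ratio was 0.20; it combines the errors that the scanner software assigns to spots and leaves out variation between rats and between hybridisations. Hba-a2, the other alpha-globin gene, had dimmer spots of 5.46, 5.50 and 6.32 in the same order, each the mean of 10 spots. Its log2 ratios to control were -0.85 and -0.82, with errors of 0.22 and 0.23. They shrank to -0.37 and -0.15 with normexp, a background correction that lifts dim signals, and to -0.42 and -0.21 when 50 was added to each signal, so the ipsilateral one was then within its error. The contralateral and ipsilateral arrays did not differ beyond this error for either gene as scaled here, but without scaling they differed by 0.53 for Hba-a1 and 0.35 for Hba-a2.

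Hbb-b1, an adult beta-globin gene, had log2 ratios to control below -1 on both sides under every setting tried. It was read from 2 probes of 10 spots each, and its mean signal was 7.40, 6.96 and 9.10 in the order contralateral, ipsilateral, control. This was 3.25-fold lower than control on the contralateral array and 4.40-fold lower on the ipsilateral array, with log2 ratios of -1.70 and -2.14 and errors of 0.20 and 0.21. The probes gave nearly the same ratios: -1.71 and -1.69 on the contralateral array, and -2.13 and -2.14 on the ipsilateral array. Genes whose probes all stood well above background on the 3 arrays are called measured genes here. Only 37 of these 22085 had a lower contralateral ratio than Hbb-b1, and 13 had a lower ipsilateral ratio.

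Hbb-bs, an adult beta-globin gene beside it in the cluster, had signals of 5.12, 4.22 and 6.88, each the mean of 10 spots. On the ipsilateral array 8 of these 10 spots were well above background, and their SD was 0.29 against 0.12 and 0.07 on the contralateral and control array. Its log2 ratios were -1.76 with an error of 0.22 and -2.66 with an error of 0.31, or 3.38-fold and 6.32-fold lower than control. These ratios depended on the background: they were -0.88 and -0.92 with normexp and -0.97 and -1.01 with 50 added. No spot of Hbb-b1 or Hbb-bs on the control array came near the range of the other arrays. For both genes the order was control, then contralateral, then ipsilateral, and the last step was 0.44 (error 0.21) for Hbb-b1 and 0.90 (error 0.32) for Hbb-bs. With 50 added this step was 0.22 for Hbb-b1 and 0.04 for Hbb-bs, the latter within its error. The transcripts of a globin cluster are close to each other in sequence and probe sequences were not used here, so how far each probe reads only its own gene is uncertain.

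**Figure D1:**
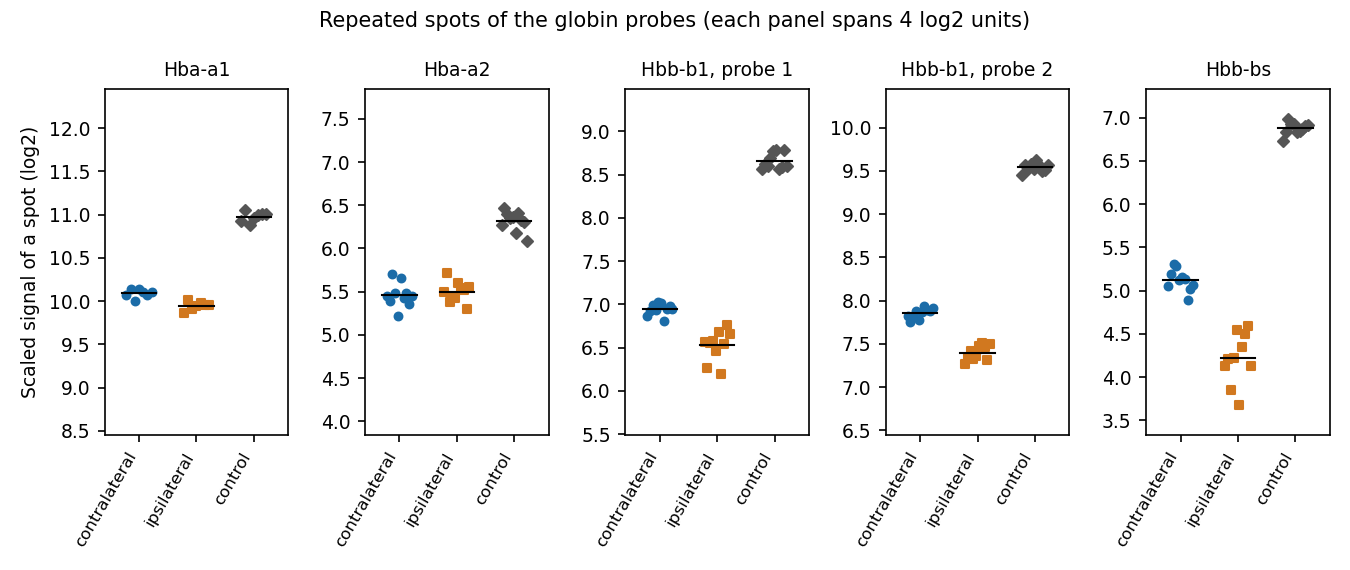
Scaled log2 signal of every spot of the 5 alpha- and beta-globin probes that was kept, by array, with the mean as a line; each panel spans 4 log2 units around its own probe. The control spots lie above those of both other arrays in each panel, and the ipsilateral spots lie below the contralateral spots in the Hbb-b1 and Hbb-bs panels and overlap them in the Hba-a1 and Hba-a2 panels.

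As measured, the beta-globin genes stood further below control than the alpha-globin genes, but with normexp the ipsilateral ratio of Hbb-bs, -0.92, was above the -0.95 of Hba-a1. Hbb-b1 minus Hba-a1 was -0.81 for the contralateral log2 ratios and -1.11 for the ipsilateral ones, each with an error of 0.29. Such a difference of ratios does not depend on a shift of a whole array. With normexp it was smaller, with -1.38 and -1.61 for Hbb-b1 against -0.84 and -0.95 for Hba-a1. The mean log2 ratio was -0.87 and -0.93 for the alpha-globin genes and -1.73 and -2.40 for the beta-globin genes.

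Ahsp and Alas2 were read from 1 dim spot each. Ahsp had processed signals of 22.2, 15.6 and 41.5 and scaled log2 signals of 4.40, 4.27 and 5.15, all well above background. Its log2 ratios to control were -0.75 and -0.88, with errors of 0.26 and 0.30. As scaled here, the difference from Hba-a1, whose product it binds, was 0.13 (contralateral) and 0.15 (ipsilateral), within the error. The ipsilateral ratio of Ahsp turned to 0.09 with normexp and to 0.04 with 50 added. Its contralateral ratio shrank to -0.18 and -0.19 with these settings, within its error. Hba-a1 had -0.84 and -0.95 with normexp and -0.86 and -0.99 with 50 added, so Ahsp and Hba-a1 then lay further apart.

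Alas2 was well above background only on the control array, where its processed signal was 19.7 against 6.0 and 9.2. Its measured log2 signals were 2.52, 3.51 and 4.07, which give only a bound: at least 1.84-fold lower than control on the contralateral array and at least 1.35-fold lower on the ipsilateral array. The bound sets the control signal against the lowest signal among probes well above background. The measured log2 ratios of Alas2, -1.55 and -0.56, turned to 0.02 and 0.36 with normexp, and the ipsilateral one to 0.29 with 50 added. The contralateral and ipsilateral signals of Alas2 have no order.

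Ngb, the neuronal globin, was read from 1 spot well above background on all arrays. Its processed signals were 242, 182 and 462, and its scaled log2 signals were 7.84, 7.81 and 8.62. The control array was again highest, and the sides differed by 0.03 with an error of 0.21, or by -0.04 with normexp and 0.41 without scaling. Ngb was 1.72-fold lower than control on the contralateral array and 1.76-fold lower on the ipsilateral array, as log2 ratios -0.78 and -0.81 with an error of 0.20 and 0.21. Among the measured genes, 417 had a lower contralateral and 323 a lower ipsilateral ratio than Ngb. The negative sign of both Ngb ratios held under the alternative settings that can move a gene with 1 spot, from -0.93 to -0.66 on the contralateral side and from -1.35 to -0.62 on the ipsilateral side.

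Cygb, the fibroblast and neuronal globin, was bright. Its processed signals were 5601, 4055 and 5608, and its scaled log2 signals were 12.37, 12.29 and 12.22. The 3 arrays did not differ beyond the error: the log2 ratios to control were 0.15 and 0.07, with an error of 0.20. The signs of these small ratios depended on the scaling, with 0.00 and -0.47 when the arrays were not scaled and -0.19 on the ipsilateral side when spike-in probes were used. Ngb minus Cygb was -0.93 for the contralateral and -0.88 for the ipsilateral log2 ratios, with an error of 0.29, so these globins of nucleated cells differed from each other by about as much as Hba-a1 differed from Cygb, -1.03 and -1.10.

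**Figure D2:**
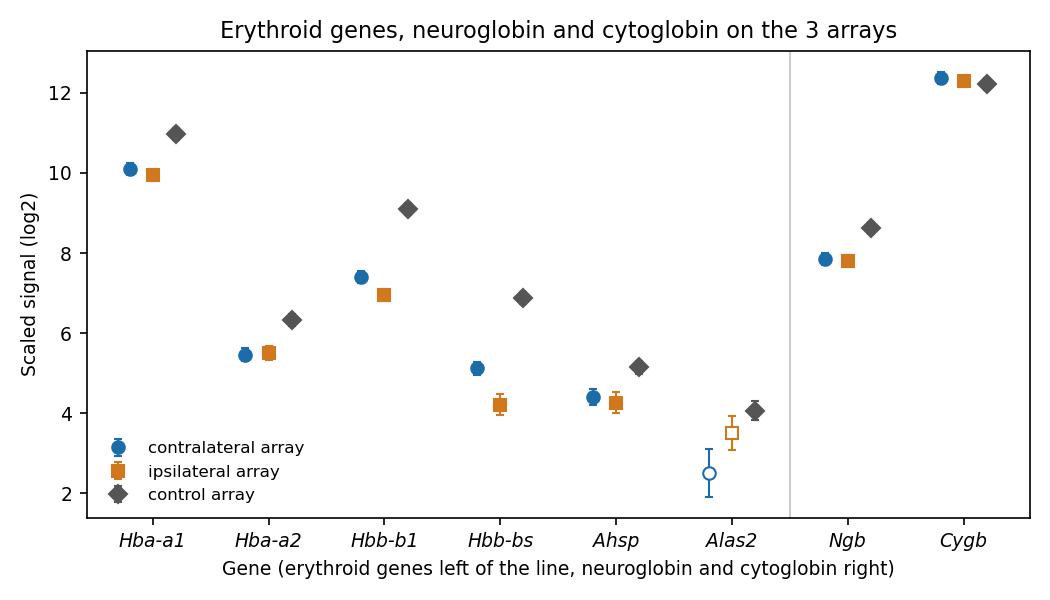
Scaled log2 signal of the 8 genes on the contralateral, ipsilateral and control array, with bars for the spot error from the scanner software; open symbols are not well above background. The control symbol is highest for the 6 erythroid genes and for Ngb and lowest for Cygb, whose signals lie between 12.22 and 12.37 and whose order depends on the scaling; with normexp or 50 added, Ahsp and Alas2 are not highest on the control array.

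On the contralateral side, the median log2 ratio to control was -1.22 over the 6 erythroid genes, with all 6 below 0, and 0.01 over the measured genes of the arrays, of which 47.6% were below 0. The erythroid median was -0.60 with normexp, where Alas2 was not below 0, and -0.64 with 50 added. With Alas2 at its bound the erythroid median was -0.88, and over the 4 erythroid genes that were measured on all arrays it was -0.87. Hbb-b1, Hbb-bs and Alas2 were below -1, Alas2 not at its bound, so 3 of 6 passed where 6.48% of all genes did. None of the 6 was above 1. Of all 38973 genes, 4359 were past 1 or -1, 2526 of them below -1. The number of erythroid genes below -1 was 1 with normexp or 50 added and 5 without scaling. Of the 4 measured ones 1 passed, Hbb-b1, where 0.851% of measured genes did. None of these 4 was above 1, where 1.41% of measured genes were. The values that chose these genes came from this comparison, so nothing is read from these counts.

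On the contralateral side, the erythroid median lay -0.44 from the Ngb ratio and -1.37 from the Cygb ratio. Over the 4 measured erythroid genes these differences were -0.09 and -1.02. The distance from Ngb thus rested on the beta-globin genes and Alas2: Hbb-b1 minus Ngb was -0.92 and Hba-a1 minus Ngb was -0.10, with an error of 0.29. With normexp and with 50 added the median lay 0.10 and 0.02 above Ngb.

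On the ipsilateral side, the erythroid median was -0.96 with all 6 ratios below 0, except that with normexp or 50 added Ahsp and Alas2 were above 0. This median was -1.49 without scaling, -0.53 with normexp and -0.60 with 50 added. The measured genes had a median of 0.03, with 44.1% below 0. Hba-a1, Hbb-b1 and Hbb-bs were below -1, which is 3 of 6 where 3.14% of all genes were; the number was 1 with normexp, 2 with 50 added and 6 without scaling. Of the 4 measured genes 2 were below -1, against 0.797% of measured genes, and none was above 1, where 3.1% of measured genes were. The median lay -0.14 from Ngb, or 0.12 with normexp and 0.03 with 50 added, and -1.02 from Cygb, and Hbb-b1 minus Ngb was -1.33. Both sides were set against the same control array, so a high control signal would lower both ratios alike.

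**Figure D3:**
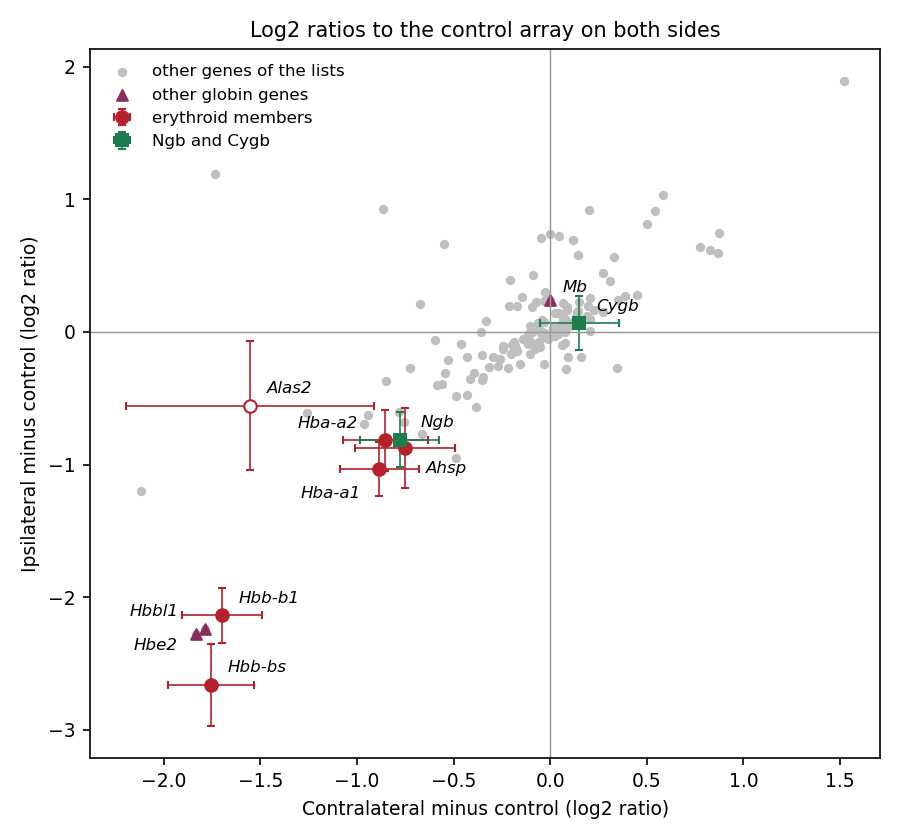
Log2 ratio to the control array on the contralateral side (x axis) and the ipsilateral side (y axis) for the 8 genes with scanner error bars, for other globin genes and for the measured genes of the lists; the open symbol, Alas2, gives only a bound, and the axes share the control array. Hba-a1, Hba-a2, Ahsp and Ngb lie together between -1.03 and -0.75, and Cygb lies near 0. The beta-globin genes lie at or below -1.70 on both axes (Hbb-bs at -0.88 and -0.92 with normexp). With normexp the genes named first do not lie together, with Hba-a2 at -0.37 and -0.15 and Ahsp at -0.18 and 0.09. Hba-a1 is then at -0.84 and -0.95 and Ngb at -0.70 and -0.66. With normexp or 50 added, Ahsp and Alas2 lie above 0 on the y axis.

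Set directly against each other, the sides as scaled here differed beyond the scanner error for the beta-globin genes and not for the alpha-globin genes, Ahsp, Ngb and Cygb. Without scaling all of these differed beyond it, by 0.35 for Hba-a2 to 1.29 for Hbb-bs. The median contralateral to ipsilateral log2 ratio of the 6 erythroid genes was 0.14, against -0.01 over the measured genes, and it was -0.09 with normexp and with 50 added. None of the 8 genes was above 1 or below -1, where 5939 of all 38973 genes were. Of measured genes alone, which leave out Alas2 and Hbb-bs, 0.217% were above 1 and 1.54% below -1. The largest ratio was 0.90 for Hbb-bs, which was 1.29 without scaling, 1.08 with spike-in probes, and 0.04 with normexp and with 50 added. Hbb-b1 was higher on the contralateral array by 0.44, and by 0.22 with either of these settings.

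Other globin genes were described from a list of 13, of which 7 had a probe and 2, Hbe2 and Mb, were measured on all arrays. Hbe2, an embryonic beta-like globin gene, had signals of 5.91, 5.46 and 7.74 and log2 ratios of -1.83 and -2.28, next to those of Hbb-b1. Myoglobin (Mb), the oxygen-binding globin of muscle, had signals of 7.24, 7.48 and 7.24 and ratios of 0.00 and 0.24. The median of the 2 genes was -0.92 and -1.02, or -0.54 and -0.45 with normexp. Hbb was at least 3.16-fold lower than control on the ipsilateral array, where it was not well above background, and had a contralateral ratio of -1.03. Hbbl1, a beta-like globin gene added to the description after its values could be seen, had ratios of -1.79 and -2.24. The measured beta cluster genes Hbb-b1, Hbe2 and Hbbl1 thus lay within a range of -1.83 to -1.70 on the contralateral side and -2.28 to -2.14 on the ipsilateral side. Cross-hybridisation among them cannot be told apart from a shared change.

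Lists of other genes of red cells had medians near 0 over their measured genes, many of which are also transcribed in the brain. Of 19 red cell membrane and cytoskeleton genes, 13 had a probe and 7 were measured, with medians of -0.03 and -0.07, or 0.08 and 0.15 with normexp, and none above 1 or below -1. Sptb, which encodes beta-spectrin and is also made in neurons, was the brightest with signals of 11.10, 11.03 and 11.15, and the measured contralateral ratios ran from -0.14 for the adhesion gene Icam4 to 0.09 for the adducin gene Add2. Slc4a1, the anion exchanger band 3 of red cells, did not rise well above background in the contralateral sample and was at least 3.39-fold lower there than in the control, unlike the median of its list. Its ipsilateral ratio was -0.77 with an error of 0.34. Epb42, Rhag and Xk, red cell genes of this list, were not well above background on any array.

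Among 16 erythroid transcription factors and receptors, 12 were measured and none was above 1 or below -1 on either side. Their median log2 ratio was 0.03 and 0.08, or -0.12 and -0.46 without scaling. The transferrin receptor gene Tfrc was the brightest, with ratios of -0.35 and -0.37; the contralateral ratios ran from -0.36 for Lmo2 to 0.35 for Tal1. Gata1, Nfe2 and Gfi1b, which define erythroid and megakaryocyte precursors, were not well above background on any array. Klf1, the factor that binds CACCC in the beta-globin promoter, had ratios of -0.05 and 0.71.

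Genes of the heme synthesis list had medians of -0.02 and -0.03, or 0.02 and 0.01 with normexp. All 16 of those with a probe were measured and none passed 1 or -1, from -0.40 for Ppox to 0.19 for Urod, the brightest, on the contralateral side. Alas1, the housekeeping counterpart of Alas2, had signals of 13.60, 13.62 and 13.52 and ratios of 0.08 and 0.10. Of 19 red cell enzyme and late erythroid genes with a probe, 14 were measured, with medians of -0.05 and -0.02, the latter 0.04 with normexp. The brightest was the peroxiredoxin gene Prdx2 with ratios of -0.03 and -0.01; the lowest contralateral ratio was -0.97 for Isg20 and the highest was 0.20 for the carbonic anhydrase gene Car1, which had 0.92 on the ipsilateral side. Slc14a1, a urea transporter of red cells and astrocytes, was read from 1 spot and was well above background only on the contralateral array. Its measured log2 ratio of contralateral to control was 3.14 with an error of 0.45, opposite in sign to the globin genes.

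Genes that clear hemoglobin, heme and iron included the only measured gene of the lists above 1 on both sides. Cd163, the macrophage receptor for hemoglobin bound to haptoglobin, had signals of 6.02, 6.39 and 4.50 and ratios of 1.52 and 1.89, with an error of 0.24 on the contralateral side. Of 18 genes in this list 16 were measured, with medians of 0.01 and -0.01, or -0.14 and -0.54 without scaling and 0.00 and 0.13 with normexp, and 1 gene above 1 on each side. Hmox1, which breaks down heme, had ratios of 0.50 and 0.81. The ferritin heavy chain gene Fth1 was the brightest with ratios of 0.31 and 0.39, and Hamp, the iron hormone hepcidin, was lowest on the contralateral side with -0.59.

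Measured markers of other blood cells had medians above 0 on both sides as scaled here. All of these but the contralateral leukocyte median changed sign under another scaling. Over all markers with a probe, many not well above background, the medians were -0.02 and 0.27 (platelet) and 0.03 and 0.52 (leukocyte). Of 9 platelet and megakaryocyte markers with a probe, 4 were measured, with medians of 0.06 and 0.33, or -0.09 and -0.20 without scaling. The brightest was Pf4 with ratios of 0.14 and 0.58, and contralateral ratios ran from -0.33 for Treml1 to 0.78 for F13a1, which macrophages also express. The summed scaled signal of the platelet markers was 220, 295 and 221. Such sums, here and below, cover every gene of a list with a probe, measured or not. Of 19 neutrophil and blood leukocyte markers with a probe, 6 were measured, with medians of 0.37 and 0.28, the latter -0.25 without scaling, and a summed signal of 508, 534 and 425. Nkg7 was the brightest with ratios of 0.87 and 0.74, and the defensin gene Np4 was lowest with -0.49 and -0.95. S100a9, a neutrophil gene, was above 1 on the ipsilateral side with 1.04. The neutrophil genes Elane, Ltf, Mmp8 and Cxcr2 were not well above background on any array.

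Vessel marker medians were below 0 on both sides under every setting tried, but the size of the ipsilateral ones depended on it: -0.64 (endothelial) and -0.66 (mural) without scaling, and -0.01 and -0.03 with normexp. All 15 endothelial markers with a probe were measured, and 12 and 9 were below 0, contralateral first, with medians of -0.19 and -0.10. Cldn5, a tight junction gene and the brightest on average, had ratios of -0.19 and -0.14; on the contralateral side Tie1 was lowest and Abcb1a highest, with -0.78 and 0.35. The summed signal of the endothelial markers was 6845, 7019 and 8460, highest in the control. Of the 12 mural cell markers 10 were measured, with 10 and 9 below 0, medians of -0.23 and -0.13 and summed signals of 4600, 4792 and 5492. Vtn was the brightest and the lowest of these, with -0.49 and -0.48, and Cspg4 was the highest on the contralateral side with -0.05. None of the endothelial or mural markers measured was below -1, and the part of vessel content in the globin ratios was not tested.

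For Cygb, 12 fibroblast and stellate cell markers had a probe and 11 were measured, with medians of -0.17 and -0.10, the latter 0.06 with normexp, and summed signals of 17247, 18814 and 21181. On the contralateral side the collagen gene Col1a1 was lowest with -1.26, while Reln, the brightest, was highest with 0.21 and is made by cerebellar granule cells as well. Cygb did not share the lower ratio of Col1a1. For Ngb, 6 of 12 markers of regions rich in neuroglobin were measured, with medians of -0.05 and 0.00, or 0.04 and 0.13 with normexp and -0.21 and -0.53 without scaling. The brightest was Gal, with ratios of 0.07 and 0.22, and the contralateral ratios ran from -0.20 for Nos1 to 0.11 for Avp. None of these 6 was as low as Ngb. Others of the list give only bounds, in both directions: on the contralateral side Dbh was at least 2.10-fold lower than control, Tph2 at least 2.11-fold higher and Slc6a2 at least 1.29-fold higher.

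Cerebellar cortex markers had medians of 0.14 and 0.12, or -0.01 and -0.41 without scaling, from -0.19 for Zic1 to 0.45 for Zic2 on the contralateral side, and none passed 1 or -1. Choroid plexus markers were below 0 with the globin genes on the contralateral side, all 10 of the measured ones, and mostly above 0 on the ipsilateral side: of 13, 10 were measured, with medians of -0.57 and 0.35, the latter -0.19 without scaling, and summed signals of 12036, 78588 and 35878. Ttr, the brightest, had log2 ratios of -1.73 and 1.19, the transporter gene Slc4a5 was lowest with -2.12 and -1.20, and Calml4 was highest on the contralateral side with 0.00. The part of choroid plexus tissue in the globin ratios was not tested.

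**Figure D4:**
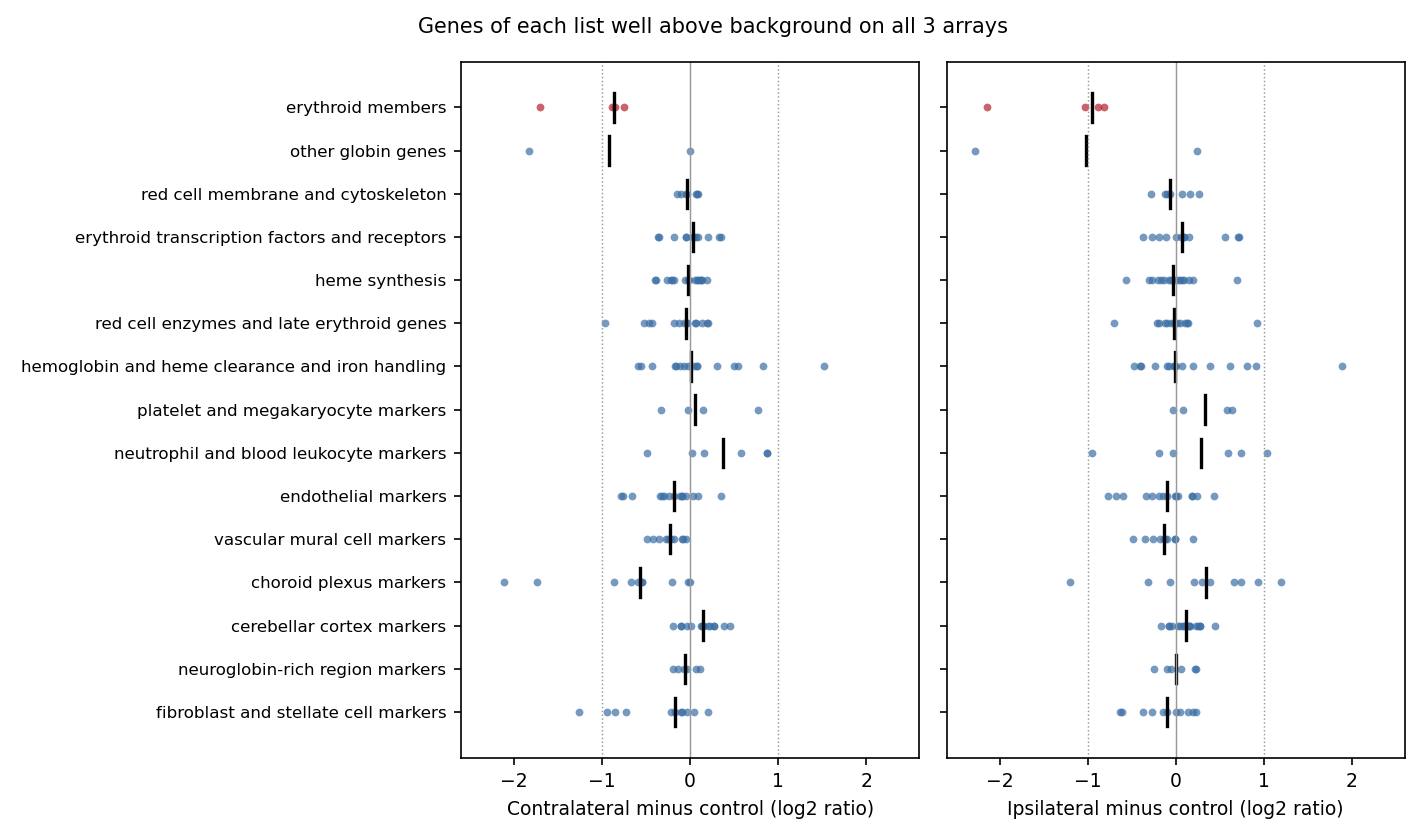
Log2 ratios to control of the measured genes of each list, contralateral on the left and ipsilateral on the right, with the list median as a black line and dotted lines at -1 and 1. The 4 measured erythroid genes lie at or below -0.75 on the left, where Hba-a2 is at -0.37 and Ahsp at -0.18 with normexp. With 50 added these are at -0.42 and -0.19. The medians of the red cell membrane, erythroid factor, heme synthesis and red cell enzyme lists lie between -0.07 and 0.08 on both sides. All of these medians but the contralateral enzyme median change sign under other settings. Ahsp alone of the 4 erythroid genes moves above 0 on the right with normexp or 50 added.

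Genes with the most similar pattern were sought among 11244 named measured genes that are not members, by the distance between their pair of log2 ratios to control over the 3 arrays. Nearest to the mean of the 4 measured erythroid genes, -1.05 and -1.22, were Or51l4, Duox1, Slc27a5, Unc13a and RT1-CE7, and only 2 genes lay within 0.1 of it. Or51l4, an olfactory receptor gene with ratios of -1.12 and -1.23, lies on chromosome 1 with 3 annotated genes between it and Hbb-bs, none of them measured on all arrays. Nearest to Ngb were Hmgcs1, Dhcr7, Serpinb10, Aspm and LOC102549211, and 20 genes lay within 0.1. Hmgcs1, an enzyme gene of cholesterol synthesis, had signals of 13.27, 13.26 and 14.07 and ratios of -0.80 and -0.81. Nearest to Cygb were Hp1bp3, Polr3k, Jph4, Arfgef2 and Cd2bp2, at distances of at most 0.005, and 1749 genes lay within 0.1.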

How the data were processed

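The authors used 1-colour Agilent arrays; the deposited intensity values of the spots come from Agilent Feature Extraction 12.1.0.3, which subtracted the background. All 3 arrays lay on the same slide. The authors also deposited these intensities multiplied by 1 factor per array (1.12, 1.45 and 1.04). The study's methods describe a normalization to the control samples; whether these factors are that step is not stated.

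The log2 processed signals were shifted to a common 75th percentile, 759 outlier spots were left out, and spots, then probes of a gene, were averaged. Of 39957 accessions, 17622 matched a RefSeq symbol (GRCr8). Members and lists were chosen with earlier results of these data known. A gene was called at a log2 ratio above 1 or below -1, as in the study's methods; no test was made, and the number of arrays limits the precision. Named genes are the members, the brightest (mean of the arrays), highest and lowest (contralateral) measured gene of each of 14 lists, and the 5 nearest patterns; others were chosen after their values were seen. A further gene of the lists is not reported here. The lists of the beta and alpha clusters were added later. Scripts were tested on simulated data. Python 3.11.15, numpy 2.4.6, pandas 2.3.3, biopython 1.88, scipy 1.17.1 and matplotlib 3.10.9 were used. Normexp was run on median signals, as there was no mean signal column, with R 4.3.3 and limma 3.58.1. The Hallmark gene sets of the study were not used.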

Additional observations from a re-analysis of the deposited data

Results flagged for a closer look

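Ttr, a choroid plexus gene, differed in direction between the sides, with a log2 ratio to control of -1.73 (contralateral) and 1.19 (ipsilateral). Each ratio was larger than its scanner error and both use the same control array; whether the sides differ was not tested. None of the 8 globin and erythroid genes had ratios of opposite sign in this setting, but Ahsp did with normexp (-0.18 and 0.09) and with 50 added (-0.19 and 0.04), Alas2 with 50 added (-0.17 and 0.29) and Cygb with spike-in scaling (0.07 and -0.19).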

How the results depend on the processing

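Other settings tried were arrays left unscaled, scaled to the median, to 8 spike-in probes or by quantiles, the deposited values, normexp (offset 50), 50 added, measured genes only, the brightest probe, single probes, and outlier spots kept. The last 4 cannot move the value of a gene with 1 probe and no outlier spot. The ratios to control of Hba-a1, Hba-a2, Hbb-b1, Hbb-bs and Ngb stayed negative under every alternative run for them; Hbb-bs has no value among measured genes only, and single probes were run for Hbb-b1.

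Without scaling, the median of measured genes shifted to -0.14 (contralateral), -0.50 (ipsilateral) and 0.37 (between sides), and with spike-in probes to -0.07, -0.22 and 0.16. Relative to it, the erythroid medians were as before, -1.23, -0.99 and 0.15. Without scaling the erythroid median was -1.49 on the ipsilateral side and 0.52 between sides, and 5 and 6 erythroid genes were below -1 against control; with spike-in or quantile scaling 5 were on the ipsilateral side. With normexp the medians were -0.60 and -0.53, the distances 0.10 and 0.12 from Ngb and -0.83 and -0.62 from Cygb, and 1 gene was below -1 on each side; the Alas2 contralateral ratio changed sign to 0.0217. With 50 added the medians were -0.64 and -0.60, the distances 0.0215 from Ngb (contralateral) and -0.79 and -0.66 from Cygb, and 1 gene was below -1 on the contralateral side. Both settings add a constant to every signal, and normexp also starts from another signal column. The 50 was added before the arrays were scaled, so scaling then changed it by a different factor on each array. Without the constant these factors were 0.948 (contralateral), 1.236 (ipsilateral) and 0.853 (control). This raises the ratio to control of a dim spot, more so on the ipsilateral side. The signs of Ahsp and Alas2 with 50 added thus depend in part on the brightness of the arrays. The cause of the remaining moves was not tested. Measured genes only gave -0.87, -0.0889 and -1.02 on the contralateral side and 1 gene below -1. Genes past 1 or -1 numbered 4359, 6440 and 5939 in the contralateral, ipsilateral and between-side comparisons, 123, 191 and 46 with normexp, 211, 336 and 129 with 50 added, and 500, 860 and 388 among measured genes.

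Of measured genes past 1 or -1, 62.4%, 79.5% and 12.4% were above 1; this was 40.3%, 10.5% and 59.7% without scaling, 50.8%, 47.6% and 29.4% with spike-in probes, and on the ipsilateral side and between sides 64.5% and 40.8% with quantiles. Signal over background limits Alas2, Ahsp and Hbb-bs most. No paired analysis was possible because each group had 1 array.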
